A study of Mus musculus with 4 samples.

Results

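The ephrin, Slit and netrin guidance families were examined in mouse neurons made from embryonic stem (ES) cells. These are 41 genes named by symbol, of 34968 gene symbols shared by all libraries, and they comprise 14 Eph receptors, 8 ephrins, 3 Slits, 4 Robo receptors, 6 netrins and 6 netrin receptors. The rule that chose them was family membership and used no measured value, although earlier results of these data were known. Of these, 36 reached 1 TPM (a measure of transcript abundance scaled to transcript length and to the library total) or more in 2 or more of the libraries and entered the test, and 5 did not (Epha1, Epha2, Robo4, Ntn5 and Ntng2). None of the 36 passed this filter through the libraries of 1 line alone.

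The parental ES line, of strain C57/BL6 by its label, carries Dlx6-Cre and the Ai9 reporter, so that cells of the Dlx6-expressing subpallial lineage turn on tdTomato permanently. Into it were placed a transgene that drives Nkx2-1 and a tetracycline transactivator from Nestin regulatory sequence, and a tetracycline-responsive transgene that carries Dlx2 in the N/D line and Dlx2 with V5-tagged St18 in the N/D/S line. Lines were grown from hygromycin-selected clones, so St18 and any difference between clones cannot be told apart. Both lines were treated alike, with the Wnt inhibitor XAV-939 and the Smoothened agonist SAG, and tdTomato+ cells were sorted from embryoid bodies on day 12. Each line gave 2 libraries, and the study used the comparison to ask how St18 changes neurons of the medial ganglionic eminence (MGE). Nothing in the labels says that the 2 libraries of a line came from separate differentiations, so p-values measure the spread between these libraries, which may be technical.

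Axon guidance molecules are ligands and receptors that tell a growing or migrating neuron where to go. Ephrins are held at the surface of a cell, the A class by a lipid anchor and the B class by a transmembrane domain, and are read by Eph receptor tyrosine kinases on touching cells, most often as repulsion. Slits are secreted and repel through Robo receptors. Netrin-1 attracts through Dcc and repels where Unc5 receptors take part. In the developing ventral forebrain all of these systems are known to act on neurons leaving the MGE, including interneurons on their way to the cortex.

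Depth is unknown, because the deposited TPM carry no read counts. TPM are scaled to transcript length, which lets levels of genes be set side by side within a library, while differences between libraries still varied with transcript length. The libraries differed widely, with between 13426 (N/D replicate 1) and 20750 (N/D/S replicate 1) genes above 0. The library labelled N/D replicate 1 listed at 0 9.99% of the 6139 genes that had 10 TPM or more in each of the others, against at most 0.0434% for any other library. St18, the induced gene, stood at 44.4 and 15.9 TPM (replicates 1 and 2) where the label is N/D/S and at 28.5 and 26.6 TPM where it is N/D, so it did not follow the labels, and every direction given here rests on the labels. Library names are used as labelled throughout, and values come in the order of replicates 1 and 2. The 7 neuronal markers were above 0 in every library and summed to 4665 and 3266 TPM in N/D/S against 4080 and 3000 TPM in N/D, with Tubb3 higher and Rbfox3 and Elavl3 lower in both N/D/S libraries and the others overlapping. The 8 markers of GABAergic ventral forebrain neurons were also above 0 in all 4 and summed to 1321 and 500.2 TPM in N/D/S against 567 and 1148 TPM in N/D, the same order of libraries within each line as the sum of the guidance genes. Several lists of markers of other cells summed higher in both replicate 2 libraries than in both replicate 1 libraries: the 6 pluripotency markers summed to 3.60 and 0.247 TPM in the replicate 1 libraries (N/D/S, N/D) and to 293 and 186 TPM in the replicate 2 libraries, and the 5 oligodendrocyte markers to 16.9 and 0 against 32.8 and 126 TPM. In N/D replicate 1, 5 of the 6 pluripotency and 5 of the 5 oligodendrocyte markers were listed at 0. The 8 progenitor markers summed to 360.2 and 633 TPM in N/D/S and to 244 and 1104 TPM in N/D, the 7 mesenchymal markers to 8.58 and 28.0 against 0.0778 and 47.8 TPM, and the 5 glutamatergic markers to 19.1 and 1.27 against 17.3 and 3.21 TPM. The sums of all these lists overlapped between the lines, and their part in the results was not tested.

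The level of each guidance gene in each library is shown in the plot by family. In these bulk samples, fewer cells of a type and less RNA per cell cannot be told apart. By mean over all 4 libraries, the most abundant genes were Efnb3, Efna2, Epha5, Robo2, Ephb1 and Efnb2, at 76.2, 50.8, 28.5, 24.4, 23.0 and 22.8 TPM. Ligands of the ephrin family thus held the top 2 places, and the most abundant Slit (Slit3, 5.22 TPM) and netrin (Ntn1, 9.82 TPM) came only 22nd and 16th of the 41. The order was not the same in each library. Efnb3 ranked first in 3 libraries and 6th in N/D replicate 1, where Efna2 ranked first and Robo2 second. The order is given as a description, since the ranges of neighbouring genes overlapped for the leading 6.

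**Figure D1:**
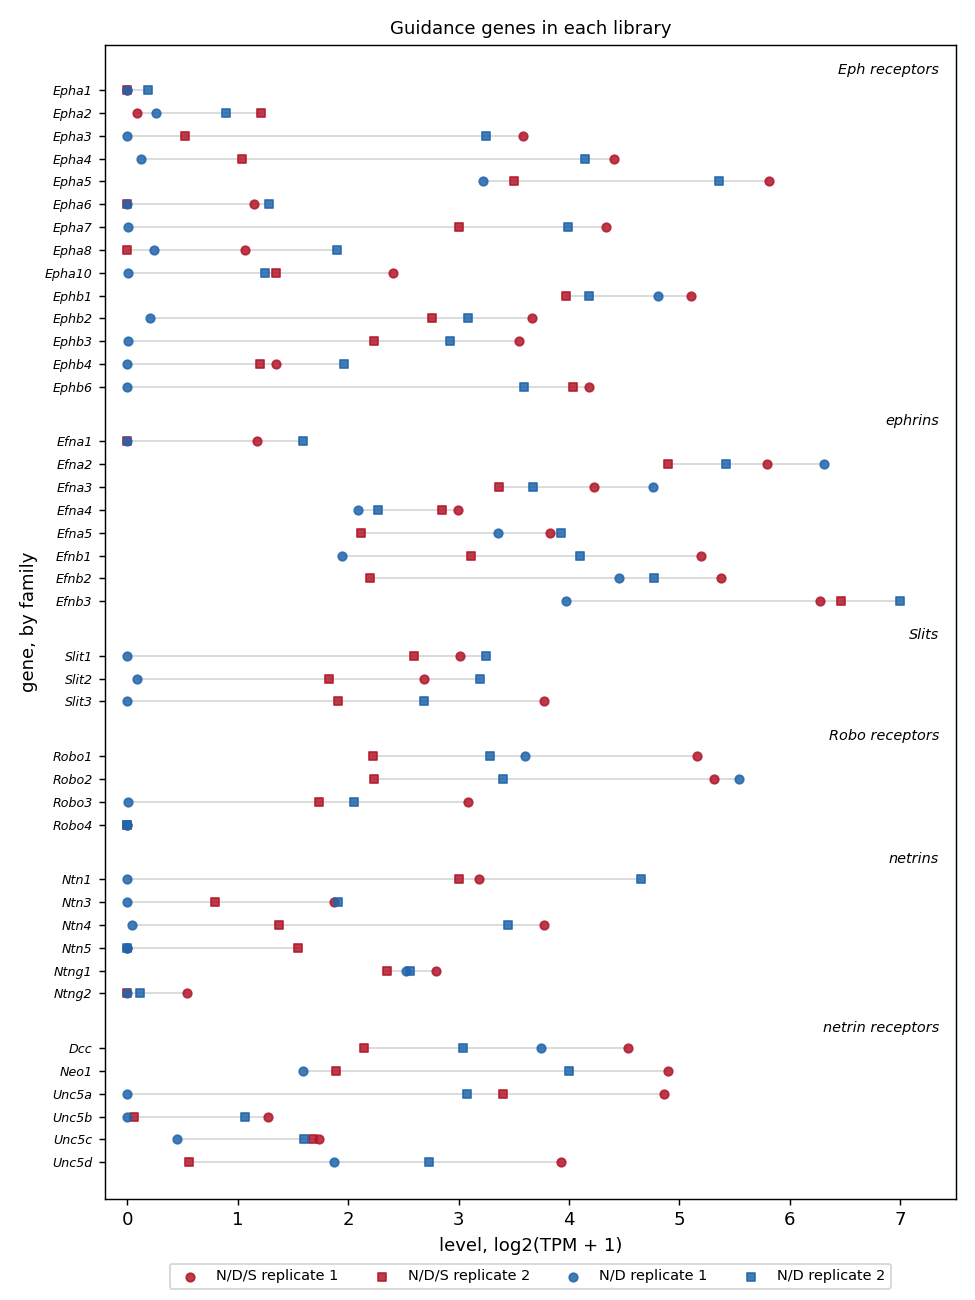
Level of the 41 guidance genes in each library as log2(TPM + 1), by family; circles are replicate 1, squares replicate 2, red N/D/S and blue N/D, and the grey line joins the lowest and highest library. The blue circles (N/D replicate 1) are under 1 TPM for 26 of the 41 genes, and the red circles (N/D/S replicate 1) are above the red squares for 35 of the 36 genes tested.

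Among the families, ephrin ligands varied least within the lines, with a median residual standard deviation of 0.95 on the log2(TPM + 1) scale. It was 1.47 or more for each other family. Over all genes tested it was 1.03, so the ephrins lay near that value. Efnb3, a transmembrane ephrin, had 76.6 and 87.0 TPM in N/D/S against 14.7 and 127 TPM in N/D. The N/D libraries lay on either side of the N/D/S libraries. Efnb1, an X-linked transmembrane ephrin, had 35.7 and 7.64 TPM in N/D/S against 2.86 and 16.2 TPM in N/D. Efnb2, whose protein is the B ephrin best known from arteries and which is also a ligand in the nervous system, had 40.6 and 3.60 TPM in N/D/S against 20.9 and 26.2 TPM in N/D. For all 3 B ephrins the groups overlapped, and for Efnb1 and Efnb2 the N/D/S libraries lay farther apart than the means of the lines.

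Among the lipid-anchored ephrins, Efna2 had 54.5 and 28.9 TPM in N/D/S against 78.2 and 41.8 TPM in N/D. Efna3 behaved alike, at 17.8 and 9.34 TPM in N/D/S against 26.1 and 11.7 TPM in N/D. Both were lower in N/D/S within each replicate number, by 0.51 and 0.52 on the log2(TPM + 1) scale for Efna2 and by 0.53 and 0.30 for Efna3, while their groups overlapped. Efna5, a repulsive cue in the mapping of retinal axons, had 13.2 and 3.32 TPM in N/D/S against 9.25 and 14.2 TPM in N/D, with overlap. Efna1 was low, at 1.26 and 0 TPM in N/D/S against 0 and 2.01 TPM in N/D. Efna4 had 6.97 and 6.21 TPM in N/D/S against 3.27 and 3.82 TPM in N/D, and was the only ephrin whose groups did not overlap. Its libraries also differed least within a line, with a residual standard deviation of 0.11 on the log2(TPM + 1) scale, the lowest of the 8 ephrins.

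EphA receptors, which read mainly the A ephrins, were led by Epha5, at 55.1 and 10.3 TPM in N/D/S against 8.30 and 40.1 TPM in N/D. Epha5 made up between 46.2% and 94.5% of the summed TPM of the 9 EphA genes in every library. Epha4, which reads ephrins of both classes and is found on migrating cortical interneurons, had 20.2 and 1.05 TPM in N/D/S against 0.0932 and 16.7 TPM in N/D. Epha3 had 11.01 and 0.4401 TPM in N/D/S against 0 and 8.52 TPM in N/D, and Epha7 had 19.1 and 7.03 against 0.00269 and 14.9 TPM. In all 4 of these genes N/D/S replicate 1 was the highest library, N/D replicate 2 the second and N/D replicate 1 the lowest, so the lines overlapped. Epha8 (1.09 and 0 TPM in N/D/S against 0.183 and 2.74 in N/D) and Epha6 (1.21 and 0 against 0 and 1.44 TPM) were near the filter, and Epha2 and Epha1 stayed at or below 1.31 and 0.138 TPM. Epha10, a member without kinase activity, had 4.29 and 1.55 TPM in N/D/S against 0.00710 and 1.37 TPM in N/D. Its groups did not overlap, with the lower N/D/S library close to the higher N/D library.

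Of the EphB receptors, which read the B ephrins, Ephb1 had the highest mean over libraries, at 33.4 and 14.7 TPM in N/D/S against 27.0 and 17.1 TPM in N/D. It made up 99.4% of the summed EphB TPM in N/D replicate 1 and between 35.9% and 44.8% in the others, with Ephb6 above it in N/D/S replicate 2. Ephb2 (11.7 and 5.75 TPM in N/D/S against 0.156 and 7.49 in N/D) and Ephb3 (10.7 and 3.70 against 0.00313 and 6.57 TPM) overlapped between the lines, as did Ephb4 (1.54 and 1.30 against 0 and 2.90 TPM), the receptor typical of veins. Ephb6, another member without kinase activity, had 17.1 and 15.4 TPM in N/D/S against 0 and 11.0 TPM in N/D. Both N/D/S libraries were thus above both N/D libraries, and Ephb6 was the only guidance gene at 10 TPM or more in the other 3 libraries that was listed at 0 in N/D replicate 1, of 5 such genes.

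All 3 Slits were listed at or near 0 in N/D replicate 1. Slit1 had 7.06 and 5.03 TPM in N/D/S against 0 and 8.51 TPM in N/D, Slit2 had 5.44 and 2.54 against 0.0640 and 8.18 TPM, and Slit3 had 12.7 and 2.74 against 0 and 5.46 TPM. Summed, they came to 25.2 and 10.3 TPM in N/D/S and to 0.0640 and 22.1 TPM in N/D, so that the N/D libraries were the lowest and the second highest. A listed 0 in N/D replicate 1 does not show low expression, since that library listed 613 genes at 0 that had 10 TPM or more in each of the others. Robo1 and Robo2 are their main receptors in the brain. Robo2 had 38.8 and 3.71 TPM in N/D/S against 45.4 and 9.59 TPM in N/D, and Robo1 had 34.7 and 3.68 against 11.2 and 8.78 TPM. Both Robo1 and Robo2 separated the replicate numbers, with both replicate 1 libraries above both replicate 2 libraries, as Ephb1, Efna2, Efna3 and Dcc also did. Robo3, a divergent member that in mammals does not bind Slits strongly, had 7.47 and 2.34 TPM in N/D/S against 0.00516 and 3.16 TPM in N/D. Robo4, the endothelial member, was listed at 0 in every library. The 8 endothelial markers summed to 5.42 and 8.12 TPM in N/D/S and to 39.1 and 3.14 TPM in N/D, most of it Pecam1, at 5.11 and 8.06 against 38.8 and 2.41 TPM. Cdh5 and Tek, also defining markers, were at or below 0.00578 TPM in all 4 libraries.

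Ntn1, the founding attractive and repulsive netrin, had 8.11 and 7.00 TPM in N/D/S against 0 and 24.1 TPM in N/D, so that the N/D libraries lay on either side. Ntn4, a netrin of basement membranes, had 12.7 and 1.59 TPM in N/D/S against 0.0304 and 9.92 TPM in N/D, and Ntn3 had 2.65 and 0.736 against 0 and 2.76 TPM. Ntng1, a lipid-anchored netrin G that binds a synaptic adhesion partner rather than Dcc, was the steadiest of the netrins, at 5.94 and 4.12 TPM in N/D/S against 4.74 and 4.91 TPM in N/D. It made up 99.4% of the summed netrin TPM in N/D replicate 1 and between 11.7% and 26.8% elsewhere. Ntng2 reached 0.456 TPM at most, and Ntn5 was above 0 in N/D/S replicate 2 alone, at 1.92 TPM.

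Among the receptors for netrins, Dcc had 22.2 and 3.43 TPM in N/D/S against 12.4 and 7.20 TPM in N/D. Dcc is the receptor through which netrin-1 attracts, and its groups overlapped. Neo1, the relative of Dcc that also reads repulsive guidance molecules, had 28.8 and 2.72 TPM in N/D/S against 2.01 and 15.0 TPM in N/D. Unc5d had 14.2 and 0.469 TPM in N/D/S against 2.67 and 5.65 TPM in N/D, and Unc5b had 1.42 and 0.0440 against 0 and 1.09 TPM. These receptors overlapped between the lines. Unc5a, a repulsive receptor largely restricted to neurons, had 28.1 and 9.60 TPM in N/D/S against 0 and 7.43 TPM in N/D. Unc5c had 2.33 and 2.20 TPM in N/D/S against 0.367 and 2.03 TPM in N/D. Both N/D/S libraries exceeded both N/D libraries for Unc5a and for Unc5c, although for Unc5c the replicate 2 libraries were only 0.08 apart on the log2(TPM + 1) scale.

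**Figure D2:**
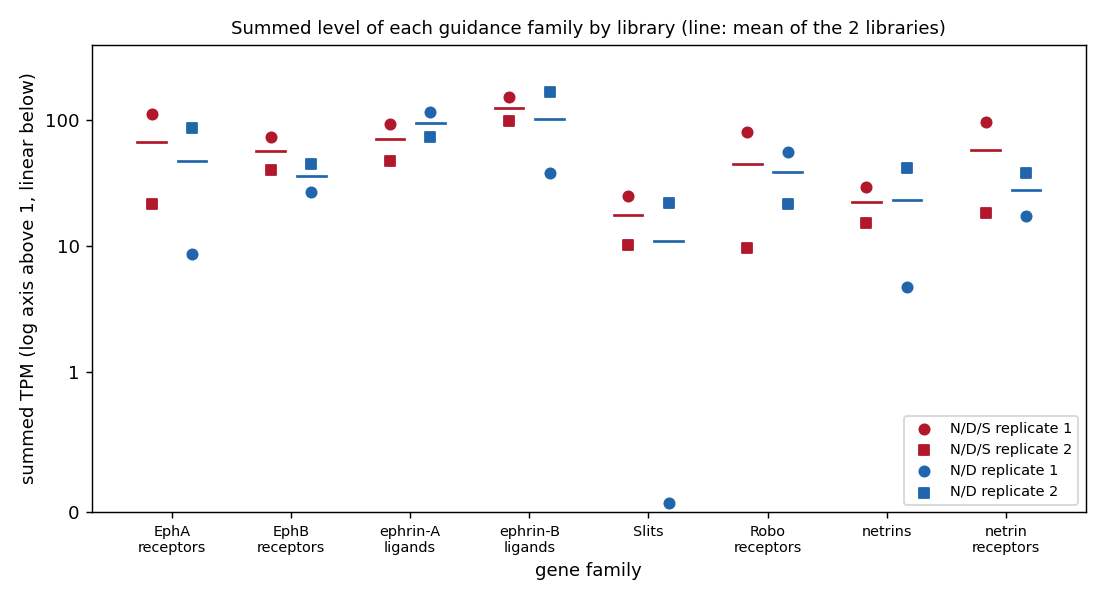
Summed TPM of each guidance family in each library, on an axis that is logarithmic above 1 TPM and linear below; circles are replicate 1, squares replicate 2, red N/D/S and blue N/D, and short lines are the mean of the 2 libraries of a line. The Slit sum was 0.0640 TPM in N/D replicate 1, whereas the ephrin-A sum was highest there, at 117 TPM.

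Summed over all 41 genes, guidance transcripts came to 666 and 262 TPM in N/D/S and to 270.0 and 498 TPM in N/D, so that the spread within each line exceeded the distance between their means, 464 and 384 TPM. EphA receptors summed to 112 and 21.7 TPM in N/D/S and to 8.79 and 86.8 TPM in N/D, and EphB receptors to 74.4 and 40.8 against 27.1 and 45.1 TPM. Ephrin-A ligands went the other way in the means, at 93.7 and 47.7 TPM in N/D/S against 117 and 73.6 TPM in N/D. Robo receptors summed to 81.0 and 9.74 TPM in N/D/S and to 56.5 and 21.5 TPM in N/D, and netrin receptors to 97.1 and 18.5 against 17.5 and 38.4 TPM. No family sum separated the lines.

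The lines were compared over all 12975 genes tested with limma on log2(TPM + 1), with Benjamini-Hochberg adjustment. Of the 36 guidance genes tested, 0 passed an adjusted p of 0.05, as did 0% of all genes, and the lowest adjusted p among them was 1. At an unadjusted p under 0.05 there were 0 guidance genes and 8 genes in all, or 0.0617%. That count moved with the processing, to 2 guidance genes (Unc5a and Ephb6) and 72 genes with quantile normalization, 1 and 377 with no filter on low values, and 12 and 3789 without N/D replicate 2. With 2 libraries in each line, a two-sided exact permutation test cannot go below 0.333 and was not run. The median log2 fold change (N/D/S against N/D) was 0.51 for the guidance genes and 0.26 for all genes, with 26 of the 36 above 0 against 61.4% of all genes. By family, it was 0.51 for Eph receptors, −0.31 for ephrins, 1.18 for Slits, 0.25 for Robo receptors, 0.57 for netrins and 0.37 for netrin receptors. Without N/D replicate 1, the median turned to −0.36 for the guidance genes and to −0.29 for all genes, and all families but the Robo receptors (0.37) were below 0. Without N/D/S replicate 1 the median of the Robo receptors was −1.22. With a library left out, the family medians ranged from −0.51 to 1.96 for Eph receptors, −0.82 to 0.57 for ephrins, −0.45 to 2.80 for Slits, −1.22 to 1.71 for Robo receptors, −0.73 to 1.93 for netrins and −0.68 to 1.38 for netrin receptors, so that each crossed 0. With 0.1 TPM added in place of 1 before the logarithm, the median was 1.08 for the guidance genes, 1.45 for Eph receptors, 2.71 for Slits, 1.76 for netrins, 0.56 for netrin receptors and 0.38 for all genes. With quantile normalization, which moved the median of all genes to −0.05, the medians of the guidance genes (−0.15), netrins (−0.24) and netrin receptors (−0.18) also turned below 0.

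**Figure D3:**
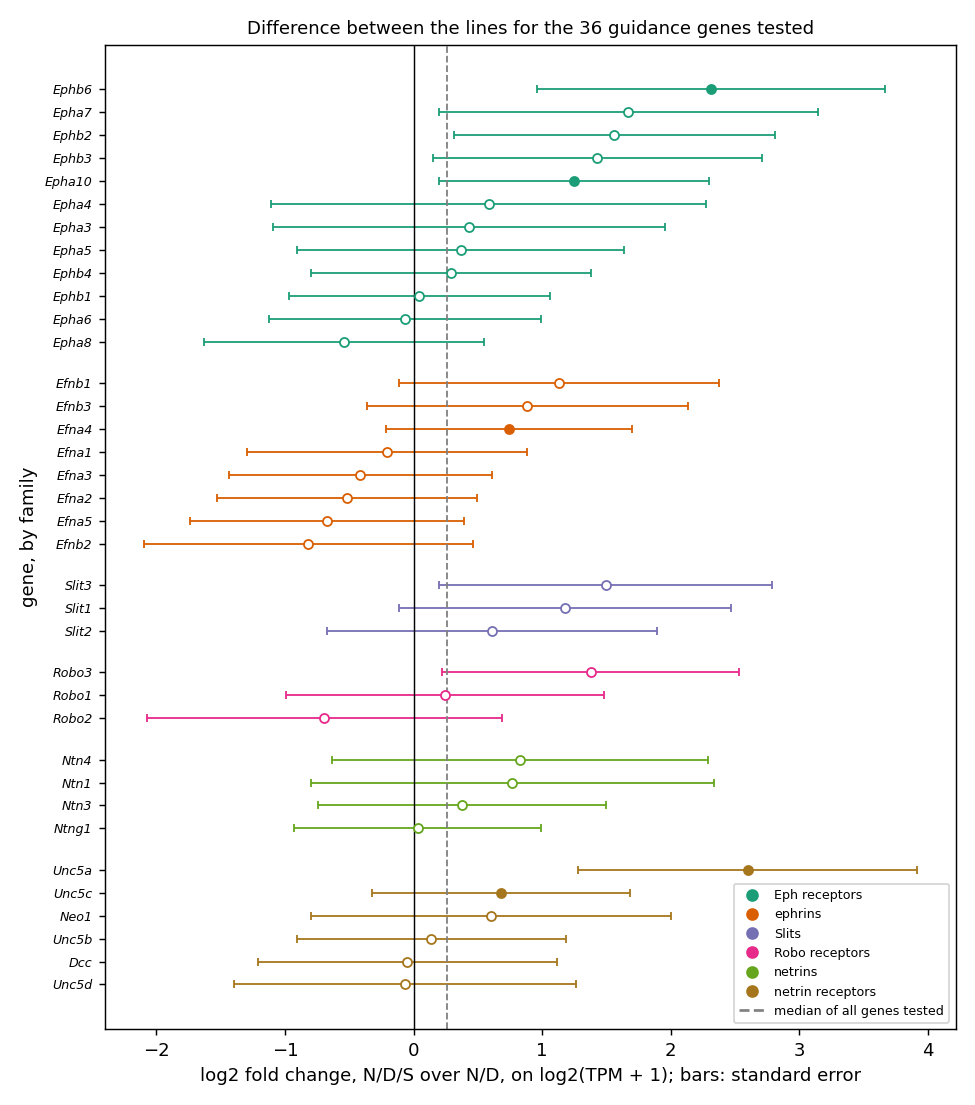
Fitted log2 fold change (N/D/S against N/D) with its standard error for the 36 guidance genes tested, by family, on the log2(TPM + 1) scale; filled points mark genes whose groups do not overlap and the dashed line the median of all genes tested, 0.26. Unc5a (2.60) and Ephb6 (2.31) lie farthest to the right, and none of the 36 passed the adjusted threshold.

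For 5 of the 36 guidance genes, or 13.9%, both N/D/S libraries were above both N/D libraries, against 8.69% of all genes tested. For 0 of the 36 both were below, against 8.23% of all genes. Both counts depend on the processing: 5 were below with quantile normalization (12.2% of all genes), 10 when N/D replicate 1 was left out (31.9%) and 11 when replicate 1 of N/D/S was (31.1%). Leaving out replicate 2 of either line put 23 above, against 42.8% of all genes for that of N/D/S and 56.8% for that of N/D. Since these genes were picked out for groups that do not overlap, their direction is a description. Unc5a had a log2 fold change of 2.60 (standard error 1.32, adjusted p = 1 from limma), with the lowest p before adjustment of the families, and ranked 286th of all genes tested by fold change. Ephb6 had 2.31 (standard error 1.35, adjusted p = 1 from limma), Epha10 had 1.25 (standard error 1.05), Efna4 had 0.74 (standard error 0.96) and Unc5c had 0.68 (standard error 1.00). For Unc5a, Ephb6 and Epha10 the size rests on N/D replicate 1, where they were listed at or near 0, and so on the 1 TPM added before the logarithm. With 0.1 TPM added instead, the values were 4.25 for Unc5a, 3.95 for Ephb6, 2.76 for Epha10, 1.24 for Unc5c and 0.88 for Efna4. Without that library the log2 fold changes were 1.06 for Unc5a, 0.52 for Ephb6, 0.63 for Epha10, 0.65 for Efna4 and 0.11 for Unc5c, so that Efna4 alone kept nearly the same value. With quantile normalization Efna4 and Unc5c turned to −0.0798 and −0.40 and Epha10 came to 0.17, and the groups of all 3 then overlapped. Without N/D replicate 2, so that N/D is the lone replicate 1 library and is assumed to vary like N/D/S, 5 guidance genes passed an adjusted p of 0.05 as higher in N/D/S (Epha7, Ephb2, Ephb6, Ntn1 and Unc5a, by limma), which is again 13.9%, against 17.1% of all genes.

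Unc5a lies in GRCm38 on chromosome 13, plus strand, between 54949411 and 55006018, and Ephb6 on the plus strand of chromosome 6, from 41605482 to 41620509. Efna4 lies on the minus strand of chromosome 3, from 89333390 to 89338028, Unc5c on the plus strand of the same chromosome, from 141465216 to 141834924, and Epha10 on the plus strand of chromosome 4, from 124880899 to 124917800. Exons of 12 of the 41 guidance genes overlap exons of another gene, and the share among all genes was not counted. They include Unc5a, Efna4, Unc5c and Epha10, whose partners are on the opposite strand (Hk3, 4731419I09Rik, Gm15688 and 1700125G02Rik). Whether the quantification used strand is not stated in the sources used here, so reads from such partners may not be told apart.

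The promoters of these genes are shown because St18 is a zinc finger protein of the Myt1 family, whose members bind AAAGTTT. RefSeq promoters of GRCm38.p6, 250 bases before to 50 after the start, were at hand for 36 of the 41 genes, 41 promoters in all. The letters AAAGTTT, read on either strand, were found in 3 of the 41 promoters (7.32%, those of Epha1, Ephb1 and Ephb4) and in 4.74% of all 32851 promoters of that length. None of the 5 genes with groups that do not overlap had a match. The promoters of Unc5a and Ephb6, which had the highest fitted values, of Efna4, which had the closest libraries, and of Ephb1, the most abundant gene with a match, are given 5′ to 3′ with the match in capitals. They lie at chr13:54949161-54949460 (plus strand), chr6:41605261-41605560 (plus), chr3:89337979-89338278 (minus) and chr9:102354644-102354943 (minus).
Unc5a: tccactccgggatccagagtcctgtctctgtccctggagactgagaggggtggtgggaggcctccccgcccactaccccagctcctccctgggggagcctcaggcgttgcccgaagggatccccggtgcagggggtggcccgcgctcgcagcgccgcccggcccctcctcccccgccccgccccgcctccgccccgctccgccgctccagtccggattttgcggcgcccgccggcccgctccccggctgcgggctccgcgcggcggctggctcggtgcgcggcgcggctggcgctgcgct
Ephb6: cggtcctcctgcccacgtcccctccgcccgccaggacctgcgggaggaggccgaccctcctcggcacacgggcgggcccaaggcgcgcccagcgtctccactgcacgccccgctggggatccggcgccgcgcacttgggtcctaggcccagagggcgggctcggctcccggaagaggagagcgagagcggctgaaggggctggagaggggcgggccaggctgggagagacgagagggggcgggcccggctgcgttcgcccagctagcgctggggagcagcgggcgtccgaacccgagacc
Efna4: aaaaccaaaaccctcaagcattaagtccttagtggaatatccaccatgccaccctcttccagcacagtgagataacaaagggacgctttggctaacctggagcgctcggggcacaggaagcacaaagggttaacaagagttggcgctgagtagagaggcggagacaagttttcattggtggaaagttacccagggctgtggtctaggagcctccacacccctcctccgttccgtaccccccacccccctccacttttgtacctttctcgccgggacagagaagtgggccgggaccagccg
Ephb1: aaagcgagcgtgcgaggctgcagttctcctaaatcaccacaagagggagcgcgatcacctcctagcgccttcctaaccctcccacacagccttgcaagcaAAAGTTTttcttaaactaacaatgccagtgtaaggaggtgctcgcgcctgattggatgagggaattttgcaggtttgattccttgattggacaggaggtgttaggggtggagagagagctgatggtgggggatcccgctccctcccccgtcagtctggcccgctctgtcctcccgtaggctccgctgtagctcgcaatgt
The first 2 are rich in G and C, at 78.3% and 76.3%, with 37 and 34 CG dinucleotides. Those of Efna4 and Ephb1 had 55.7% each, with 11 and 14, against a median GC share of 64.7% for the promoters of the families and 52.7% for all promoters. Of the genes with a match, Ephb1 had a log2 fold change of 0.04 (standard error 1.01) and Ephb4 one of 0.29 (standard error 1.09), and Epha1 was not tested. A match of these letters is a description and not a measured binding site.

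Libraries with the same replicate number are set side by side here as a description, since the numbers were not taken as pairs. Their deviations from the line means had a correlation of 0.02. Of the 36 guidance genes, 28 (77.8%) were higher in N/D/S in replicate 1 and lower in N/D/S in replicate 2. That compares with 56.6% of all genes tested. The 5 genes above were higher in N/D/S in both, which is 13.9% against 15.9% of all genes. Efna2, Efna3 and Robo2 were lower in both, which is 8.33% against 17.9%. The reverse pattern, lower in replicate 1 and higher in replicate 2, was found in 0 of the 36 and in 9.06% of all genes. The widest disagreement was that of Epha4, at 4.28 in replicate 1 and −3.11 in replicate 2 on the log2(TPM + 1) scale.

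**Figure D4:**
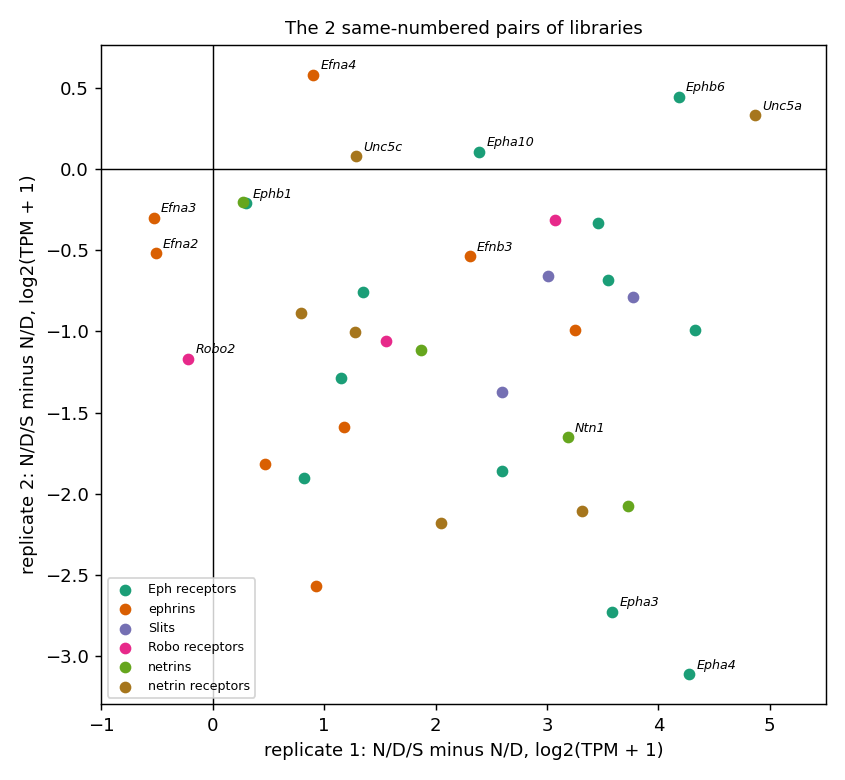
Difference of N/D/S minus N/D in log2(TPM + 1) for the 36 guidance genes tested, in the replicate 1 libraries (x axis) and in the replicate 2 libraries (y axis), coloured by family. The 28 points in the lower right quadrant are higher in N/D/S in replicate 1 only, and the 5 in the upper right are higher in both.

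Comparing libraries directly, N/D/S replicate 1 was above N/D/S replicate 2 for 35 of the 36 guidance genes (97.2%, against 73.2% of all genes), Efnb3 being the exception. The library labelled N/D/S replicate 2 was below N/D replicate 2 for 31 of the 36 guidance genes and for 74.7% of all genes. The libraries of the same line thus differed more than replicate 1 of N/D/S did from replicate 2 of N/D, where the guidance genes had a median difference of 0.41 on the log2(TPM + 1) scale, compared with 1.19 for N/D/S replicate 1 minus 2 and −1.94 for N/D replicate 1 minus 2. The guidance genes have long transcripts, with a median longest transcript of 5019 bases against 3286 bases for all genes tested, and length moved with this difference (12869 of the 12975 genes had a length). Across all genes, N/D/S replicate 2 minus N/D/S replicate 1 had a median of 0.06 for genes with a longest transcript of up to 2000 bases, −0.66 from there to 4000 bases, −1.09 to 6000 bases and −1.28 beyond. The guidance genes in the same classes had medians of −0.66 (2 genes), −1.02 (8 genes), −1.13 (15 genes) and −2.39 (11 genes). Robo1 and Robo2 were among the long genes that were low in N/D/S replicate 2. Between the lines, N/D/S replicate 2 minus N/D replicate 2 had medians over all genes of −0.05, −0.61, −0.90 and −1.08 in the same classes. For N/D/S replicate 1 minus N/D replicate 2 they were −0.09, 0.08, 0.19 and 0.21. The part of length in the comparison of the lines was not tested.

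**Figure D5:**
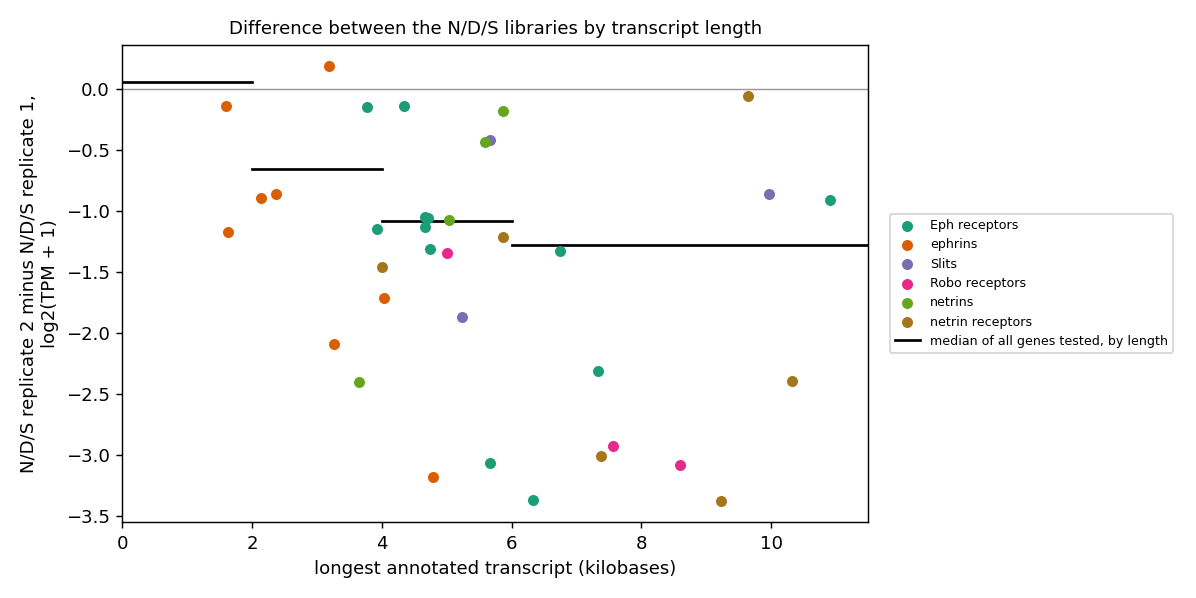
Difference of N/D/S replicate 2 minus N/D/S replicate 1 in log2(TPM + 1) against the longest annotated transcript of each of the 36 guidance genes tested, coloured by family; black lines are medians of all genes tested in 4 length classes. The medians of all genes fall from 0.06 to −1.28, and 35 of the 36 points lie below 0.

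In N/D replicate 1, 21 of the 36 guidance genes tested (58.3%) were under 1 TPM, against 42.1% of all genes tested. Those at 1 TPM or more there included all ephrins but Efna1, and from the other families Epha5, Ephb1, Robo1, Robo2, Ntng1, Dcc, Neo1 and Unc5d. Only 14 of the 36 (38.9%) reached 1 TPM in every library, against 54.0% of all genes. Efna2, Efna3 and Robo2 stood above their levels in the other libraries there, while EphA receptors other than Epha5, all Slits and Ntn1 were listed at or near 0.

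Other ligands, partners and effectors of these pathways were taken from a list of 45 genes, of which 44 were tested. None passed an adjusted p of 0.05 (lowest adjusted p = 1 from limma), with a median log2 fold change of −0.15, and 2 of the 44 (4.55%) were above and 3 (6.82%) below in both N/D/S libraries, smaller shares than the 8.69% and 8.23% of all genes. The 2 were Vasp, an actin regulator, at 19.2 and 23.7 TPM in N/D/S against 0 and 18.7 TPM in N/D, and Abl1, a kinase that acts with Robo, at 11.2 and 14.8 against 0.178 and 9.44 TPM. The 3 included the relatives of Vasp: Enah had 11.2 and 5.26 TPM in N/D/S against 53.7 and 14.9 TPM in N/D, and Evl had 279.7 and 247 against 345 and 350.1 TPM. Trio, an exchange factor that acts below Dcc, had 14.1 and 5.27 TPM in N/D/S against 34.0 and 15.6 TPM in N/D. Their log2 fold changes were 2.33 (standard error 1.49) for Vasp, 1.99 (1.28) for Abl1, −1.76 (1.10) for Enah, −1.30 (1.05) for Trio and −0.40 (0.96) for Evl. For Vasp and Abl1 the size rests on N/D replicate 1, where they were listed at 0 and 0.178 TPM. Enah and Trio were highest in that library.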

How the data were processed

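Bulk RNA-seq of tdTomato+ neurons of both lines (N/D and N/D/S), 2 libraries each, was analysed. Per the study's methods and processing notes, poly-A RNA was sequenced and reads were pseudoaligned with kallisto 0.44.0 to a mouse transcriptome (GRCm38, release not given in the sources used here). The authors deposited 1 TPM value per gene symbol and library. How transcripts were combined is not stated, and depth is unknown.

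Files were joined on symbol, without 26 entries turned into dates. Genes reaching 1 TPM in 2 or more libraries were fitted with limma 3.58.1 in R 4.3.3 on log2(TPM + 1), without covariates, with Benjamini-Hochberg adjustment over all genes and a threshold of 0.05. The study named sleuth, which needs kallisto output that was not used here. Positions, exons and the longest transcript came from GENCODE on GRCm38, and promoters from RefSeq. The test was checked on simulated data. Alternatives were other pseudocounts (0.5 and 0.1), filters, scalings, log scale, a variance trend, replicate number as a block and each library left out. Python 3.11.15, pandas 2.3.3 and matplotlib 3.10.9 were used.

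The genes, the wider list and the alternatives were chosen with earlier results of these data known. All 41 genes are named with their values, and fitted values are given for those whose groups do not overlap in TPM and, from the wider list, up to 3 highest and 3 lowest of that kind (2 and 3 were found), and otherwise only where another result turned on them.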

Additional observations from a re-analysis of the deposited data

How the results depend on the processing

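With 2 libraries per line and unknown depth, no guidance gene was called in the comparison of the lines, and a missed threshold does not show that the lines are alike. The cause of the changes below was not tested. Genes past the adjusted threshold went from 0 higher and 0 lower to 5 and 1 with the variance trend, none of them guidance genes, and ranged from 0 to 2213 higher and from 0 to 160 lower with a library left out, the most without N/D replicate 2. Guidance genes past it then ranged from 0 to 5 higher and 0 lower. Those with N/D/S above N/D in every library numbered 7 with median-of-ratios and upper quartile scaling (12.2% and 11.8% of all genes) and 5 with quantile normalization (12.1%). Against the 5 on the deposited TPM, the first 2 scalings added Ephb2 and Robo3, and quantile normalization dropped Epha10, Efna4 and Unc5c and added Ephb2, Ephb3 and Slit3. Those below numbered 1 with median-of-ratios scaling (Efna5, 9.50% of all genes) and 5 with quantile normalization (12.2%). With a library left out, where fewer libraries make separation easier, 5 to 23 guidance genes were above (13.3% to 56.8% of all genes) and 0 to 11 below (13.6% to 31.9%).

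With quantile normalization the log2 fold changes of Efna4 and Unc5c turned to −0.0798 and −0.40 and that of Epha10 came to 0.17, the median of the guidance genes to −0.15 and that of all genes to −0.05, while Unc5a (2.32) and Ephb6 (1.98) kept their direction. With a library left out, the median of the guidance genes ranged from −0.36 to 1.38. With replicate number as a block, the log2 fold change of Unc5a was 2.60 (adjusted p = 1 from limma) and no guidance gene was called. Deviations of same-numbered libraries from their line means had a correlation of 0.02, so the numbers were not taken as pairs. With a filter of 1 TPM in all 4 libraries, 14 guidance genes had a median of 0.04, the median of all genes turned to −0.15 and that of the Robo receptors to −0.22, and Unc5a, Unc5c, Ephb6 and Epha10 were not tested.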
